A study of Mus with 4 samples.

Results

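Cytosolic ribosomal protein genes were followed in *Six2*-positive nephron progenitor cells (NPCs) of *Mut* and *WT* embryonic mouse kidneys. They were taken by name, as every gene whose symbol starts with *Rpl* or *Rps* and a digit, together with *Rplp0*, *Rplp1*, *Rplp2* and *Rpsa*. Ribosomal S6 kinases and annotated pseudogenes were left out. This rule found 121 of the 41174 probes of the array, which held 84 of the 16358 genes with a symbol. The annotation held 95 genes that met the rule, and 11 of them had no probe here. Of the 84 genes, 46 encode proteins of the large subunit, 31 encode proteins of the small subunit, and 7 are paralogs (*Rpl3l*, *Rpl7l1*, *Rpl22l1*, *Rpl36al*, *Rpl39l* and *Rps27l*) or a binding partner that shares the name (*Rps19bp1*). The rule itself uses names only and no measured value.

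The cytosolic ribosome translates nearly all cellular mRNAs, and most of its proteins are needed in about the same number of copies. The mRNAs of ribosomal proteins start with a terminal oligopyrimidine (TOP) tract, through which mTOR signalling and the RNA-binding protein LARP1 set how strongly they are translated, so that transcript level and protein output can differ. Most ribosomal protein genes also have many processed pseudogenes with near-identical sequence, and an oligonucleotide probe cannot always tell a transcript from that of such a copy. Every ribosomal protein value below carries that uncertainty.

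The study asked how the transcriptome of NPCs depends on the prorenin receptor (PRR, gene *Atp6ap2*), which also assists the proton pump of acidic organelles. *Mut* cells came from *Six2* CreEGFP+ PRR flox/flox kidneys and *WT* cells from *Six2* CreEGFP+ PRR+/+ kidneys at E15.5 (embryonic day 15.5), and both were isolated by FACS for the EGFP that the transgene drives with Cre in the cap mesenchyme. The controls thus carried the Cre transgene but not the floxed allele. Each sample was a pool of kidneys, with 3 *Mut* and 3 *WT* pools, and *P* values measure the spread between these pools. On arrays 1, 2 and 3 a *Mut* pool in Cy3 (green) was hybridized against the *WT* pool of the same number in Cy5 (red). An additional array compared *WT* pool 2 (Cy3) with *WT* pool 1 (Cy5), and its values are given below as those of the *WT* vs *WT* array, or the fourth array. The dyes were not exchanged on arrays 1 to 3, so genotype and dye cannot be told apart there.

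Ratios are log2 *Mut*/*WT* after background correction (normexp) and loess normalization within each array, and signals are log2 values of a single channel normalized between arrays. The share of probes well above background ranged from 45.1% to 51.1% in Cy3 and from 54.1% to 58.3% in Cy5. The single probe of *Atp6ap2* had log2 *Mut*/*WT* ratios of -0.08, -0.19 and -0.25 and read -0.19 on the *WT* vs *WT* array. They averaged -0.17 (limma, adjusted *P* = 0.0351), and a fit that takes the dye effect from the *WT* pools put this probe at 0.02. This probe, whose place relative to the deleted part is not known here, did not separate the genotypes from the dyes, and every direction below rests on the labels. All 11 nephron progenitor markers, *Six2* and *Cited1* among them, were well above background in the 3 *WT* channels.

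The ribosomal protein probes were among the brightest on the array. They made up 92 of the 411 probes in the brightest 1% (22.38%) and 53 of the brightest 100. The median signal was 14.89 over the 84 genes and 6.492 over all probes, and 82 genes (118 probes) were well above background in both channels on all 3 arrays. The exceptions were the 3 probes of *Rpl3l*, a striated muscle paralog of *Rpl3*, and of *Rpl39l*, a paralog of *Rpl39* known from the testis, for which neither channel reached that level on any of these arrays. No ribosomal protein spot was saturated or marked as an outlier (0 and 0 spots). These brightness figures describe spots and do not rank the transcripts, since probes differ in how well they hybridize.

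Taken as a share of a channel's total signal before any dye normalization, the ribosomal protein probes held 14.14%, 14.08% and 13.31% in *Mut* (Cy3) and 15.84%, 14.72% and 15.51% in *WT* (Cy5) on arrays 1, 2 and 3. The share was thus lower in *Mut* on each array, by ratios of 0.893, 0.957 and 0.858. With *WT* RNA in both channels of the fourth array the share was 13.61% in Cy3 and 15.33% in Cy5, a ratio of 0.888. That ratio lies between those of the *Mut* vs *WT* arrays.

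**Figure D1:**
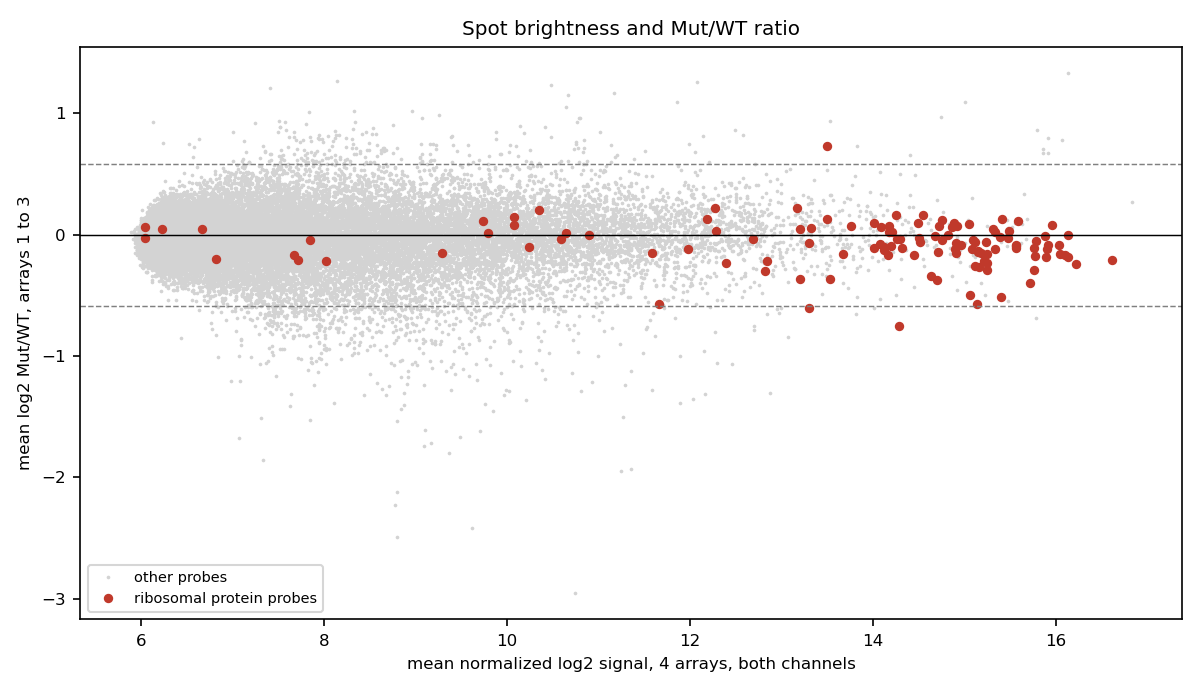
Mean log2 *Mut*/*WT* over arrays 1 to 3 (y axis) against the mean normalized log2 signal over both channels of 4 arrays (x axis), with 1 point per probe, the 121 ribosomal protein probes in red and the other probes in grey. Dashed lines mark 1.5-fold. Most red points lie at the bright end, close to and slightly below 0, with *Rps15* above the upper line and *Rpl3* and *Rpsa* below the lower one.

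Of the 121 ribosomal protein probes, 3 passed an adjusted *P* of 0.05 together with a change of more than 1.5-fold (limma). *Rpl3* and *Rpsa* were lower in *Mut* (2 of 121 probes) and *Rps15* was higher (1 of 121). Over all 41166 probes tested, 1.46% were called lower and 0.551% higher by the same rule, so the members' counts were near the background. With the adjusted *P* alone, 36 ribosomal protein probes were lower and 6 higher. Counted by the brightest probe of each gene, 24 of 84 genes (28.6%) were lower and 4 (4.76%) higher, beside 16.4% lower and 13.2% higher among all probes. Of these 24 falls, 22 were smaller than 1.5-fold, and 56 genes did not pass. The gene counts were 10 lower and 1 higher without array 2, 5 and 1 with the deposited log10 ratios, and 0 and 0 with a normexp offset of 0 or with median centring in place of loess (limma). Of all probes, in either direction, 12187 passed in the main fit, 8011 without array 2 and 4700 with the deposited ratios. With an offset of 0 or median centring, 0 of all probes passed.

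The distribution as a whole lay slightly below 0. The median log2 *Mut*/*WT* of the 84 genes was -0.07, with quartiles of -0.17 and 0.05 and a range from -0.75 to 0.73, and 64 genes lay within 0.2 of 0. The median was -0.04, -0.11 and -0.06 on arrays 1, 2 and 3, and it was -0.06 on the *WT* vs *WT* array. The ratio was negative in 58 genes and positive in 26. It was negative on all 3 arrays in 43 genes (51.2%) and positive on all 3 in 18 (21.4%), where 30.3% and 29.3% of all probes were. The 319 other probes in the brightest 1% had a median of 0.00, and 20.7% of them passed the adjusted *P* as lower and 24.5% as higher.

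**Figure D2:**
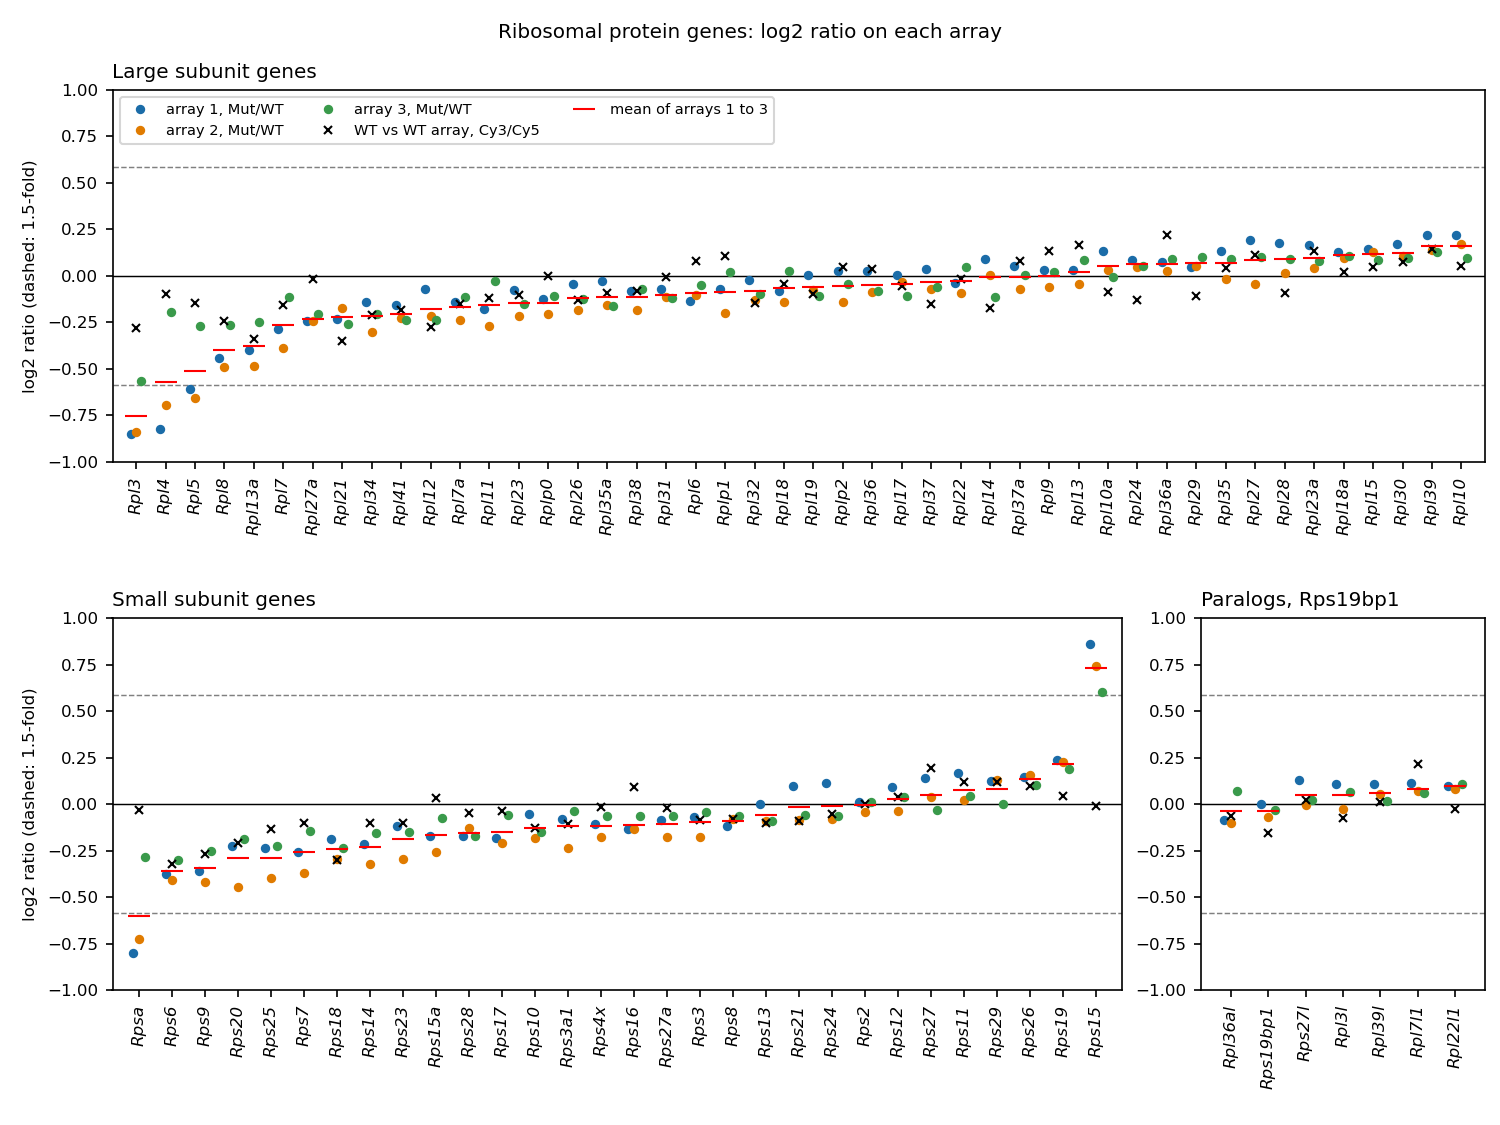
Log2 ratio (y axis) of the ribosomal protein genes at their brightest probe (x axis, ordered by the mean within each class). Circles are the *Mut*/*WT* ratios of arrays 1 to 3, red bars their mean, crosses the Cy3/Cy5 ratio of the *WT* vs *WT* array, and dashed lines 1.5-fold. The 3 circles of *Rpl3*, *Rpsa* and *Rps15* lie well away from their crosses, whereas the crosses of *Rps6* and *Rpl13a* lie among the circles.

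Large-subunit genes were lower past the adjusted *P* in 12 of 46 (26.1%) and higher in 2 (4.35%), beside 16.4% and 13.2% of all probes, with a median log2 *Mut*/*WT* of -0.06. With a dye term for each probe, described further on, 0 were lower and 0 higher (limma). *Rpl3*, whose protein reaches towards the peptidyl transferase centre, was the gene with the largest fall. Its signal was 13.85, 13.70 and 14.10 in the *Mut* pools and 14.70, 14.54 and 14.66 in the *WT* pools, so the groups did not overlap. The log2 *Mut*/*WT* was -0.85, -0.84 and -0.56, a mean of -0.75 (SE 0.064, adjusted *P* = 1.25e-05), or 1.68-fold lower. It was lower under each alternative but lost its call with the deposited log10 ratios (-0.735, adjusted *P* = 0.0533), an offset of 0 (-0.80, adjusted *P* = 0.1115), median centring (-1.48, adjusted *P* = 0.0791) and the dye term (-0.47, adjusted *P* = 0.116). Between the *WT* pools of the fourth array the log2 Cy3/Cy5 was -0.28.

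*Rpl4*, which helps to line the exit tunnel for the nascent chain, had signals of 10.87, 11.22 and 11.74 in *Mut* and 11.69, 11.92 and 11.94 in *WT*. The groups overlapped by the *Mut* value of array 3. Its ratios were -0.83, -0.70 and -0.20, a mean of -0.57 (SE 0.095, adjusted *P* = 0.000909), which was just under 1.5-fold. *Rpl5*, which with *Rpl11* and 5S rRNA forms the particle that binds MDM2 when ribosome assembly is disturbed, gave 14.83, 15.04 and 15.42 in *Mut* and 15.44, 15.70 and 15.69 in *WT*. The highest *Mut* value was just below the lowest *WT* value. Its mean log2 *Mut*/*WT* was -0.51 (SE 0.072, adjusted *P* = 0.000313). Its partner *Rpl11* had ratios of -0.18, -0.27 and -0.02, a mean of -0.16 that did not pass (adjusted *P* = 0.0660).

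*Rpl8*, a protein of the catalytic core, was lower by ratios of -0.44, -0.49 and -0.26, a mean of -0.40 (adjusted *P* = 0.000399). *Rpl13a*, also known for an extraribosomal role in silencing of inflammatory mRNAs, was at -0.40, -0.48 and -0.25, a mean of -0.38 (adjusted *P* = 0.000577). On the *WT* vs *WT* array *Rpl8* read -0.24 and *Rpl13a* -0.34, beside -0.26 and -0.25 on array 3. The other large-subunit genes that passed as lower were *Rpl7*, *Rpl27a*, *Rpl21*, *Rpl34*, *Rpl41*, *Rpl12* and *Rpl7a*, with means from -0.26 to -0.17. Both genes that passed as higher did so by a small amount, and with median centring in place of loess both were below 0 (-0.57 for *Rpl10* and -0.58 for *Rpl39*). Under that setting the other probes in the brightest 1% had a median of -0.72. *Rpl10*, which joins the subunit late and is needed for joining of subunits, had ratios of 0.22, 0.17 and 0.09 (mean 0.16, adjusted *P* = 0.0372), and *Rpl39*, a small protein of the exit tunnel, 0.22, 0.14 and 0.13 (mean 0.16, adjusted *P* = 0.0349). *Rpl30* followed with a mean of 0.13 and did not pass (adjusted *P* = 0.0898).

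The stalk that recruits elongation factors is built from *Rplp0*, *Rplp1* and *Rplp2*. At the brightest probe *Rplp0* had ratios of -0.12, -0.20 and -0.11, a mean of -0.14 (adjusted *P* = 0.0570). *Rplp1* averaged -0.08 (adjusted *P* = 0.296) and *Rplp2* -0.05 (adjusted *P* = 0.496), and none of the 3 passed at these probes.

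Small-subunit genes were lower past the adjusted *P* in 12 of 31 (38.7%) and higher in 2 (6.45%), beside 16.4% and 13.2% of all probes, with a median of -0.12. With the dye term 0 were lower and 1 was higher (limma). *Rps15*, needed for export of small-subunit precursors from the nucleus, was the only ribosomal protein gene called higher. Its signal was 14.02, 13.88 and 13.68 in *Mut* and 13.16, 13.14 and 13.08 in *WT*, without overlap. The log2 *Mut*/*WT* was 0.86, 0.74 and 0.60, a mean of 0.73 (SE 0.059, adjusted *P* = 8.66e-06), or 1.66-fold higher. With median centring in place of loess it was 0.03 (adjusted *P* = 0.945), beside a median of -0.72 over the other probes in the brightest 1%. With a normexp offset of 0 it was 0.71 without passing (adjusted *P* = 0.1115). The *WT* vs *WT* array gave -0.01, with signals of 13.53 in Cy5 and 13.52 in Cy3. Both of these *WT* values lie between the *Mut* and the *WT* values of arrays 1 to 3, and *WT* pool 1 itself read 0.37 higher on the fourth array than on array 1.

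*Rpsa*, a small-subunit protein also known as the laminin receptor, had signals of 12.85, 12.77 and 13.23 in *Mut* and 13.65, 13.50 and 13.52 in *WT*. All *Mut* values were below all *WT* values. The ratios were -0.80, -0.73 and -0.28, a mean of -0.60 (SE 0.084, adjusted *P* = 0.000298), or 1.52-fold lower, with -0.03 on the *WT* vs *WT* array. The call rested on arrays 1 and 2, since without array 1 the mean was -0.51 and without array 2 it was -0.54, both under 1.5-fold. It was also lost with the deposited log10 ratios (-0.61, adjusted *P* = 0.1065), an offset of 0 (-0.63, adjusted *P* = 0.124), median centring (-1.30, adjusted *P* = 0.0820) and the dye term (-0.57, adjusted *P* = 0.143). *Rps19*, the gene most often mutated in Diamond-Blackfan anaemia, was slightly but evenly higher at 0.24, 0.23 and 0.19 (mean 0.22, SE 0.051, adjusted *P* = 0.00738), but at -0.48 with median centring. *Rps26*, another gene of that disease, had a mean of 0.13 (adjusted *P* = 0.0704).

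*Rps6*, the substrate of S6 kinase, was lower by even ratios of -0.38, -0.41 and -0.30, a mean of -0.36 (SE 0.052, adjusted *P* = 0.000368). The comparison of *WT* with *WT* gave -0.32 for this gene, within the range of the *Mut* vs *WT* ratios. The signal of *Rps6* was 12.95, 12.81 and 13.35 in *Mut* and 13.33, 13.21 and 13.65 in *WT*, and the groups overlapped. *Rps27a*, made as a fusion with ubiquitin, averaged -0.11 (adjusted *P* = 0.146). Among the other small-subunit genes that passed as lower were *Rps9*, *Rps20*, *Rps25*, *Rps7*, *Rps18*, *Rps14*, *Rps23*, *Rps15a* and *Rps28*, with means from -0.34 to -0.16.

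**Figure D3:**
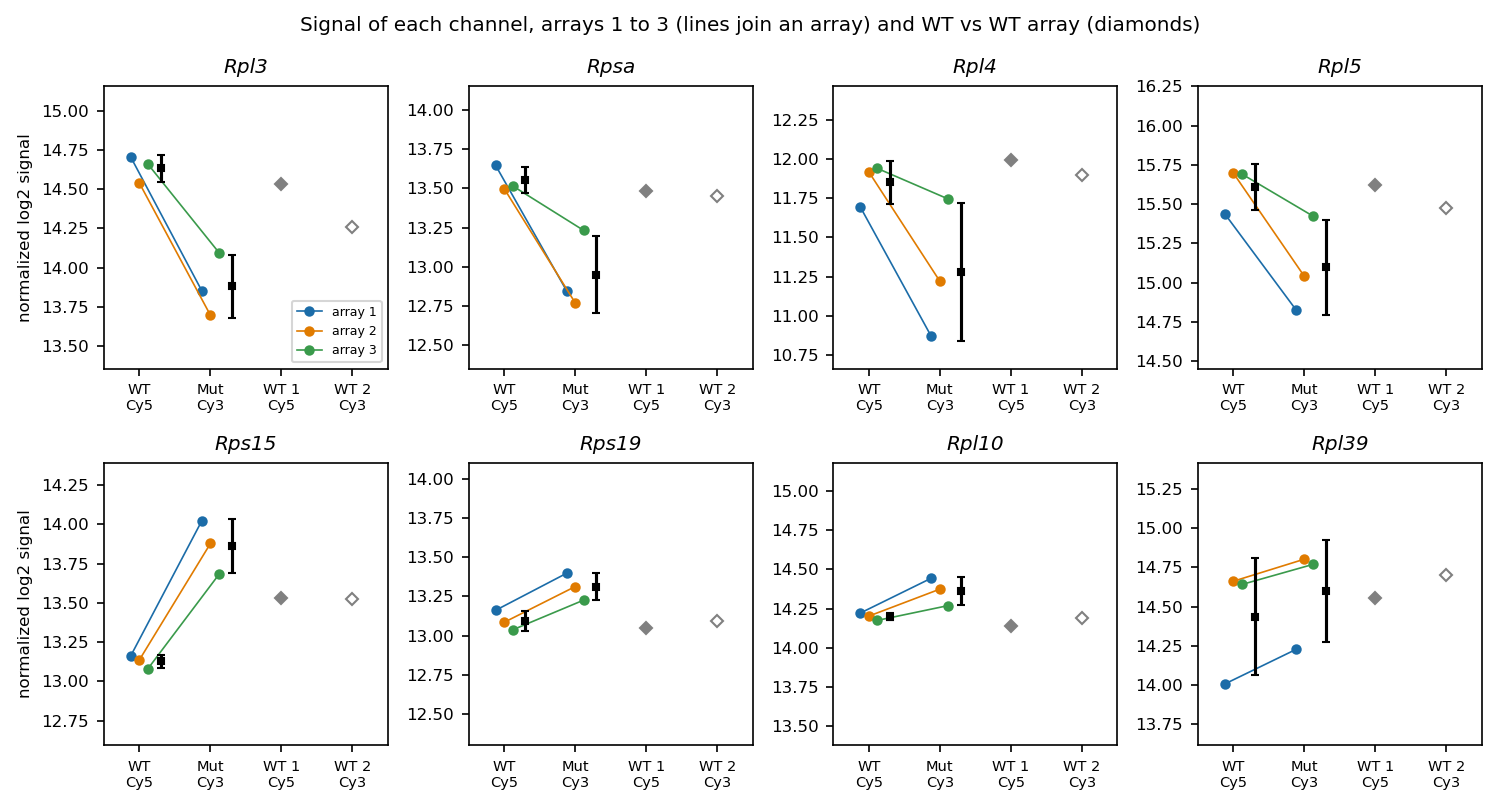
Normalized log2 signal (y axis) of 8 ribosomal protein genes in each channel. Circles are the *WT* (Cy5) and *Mut* (Cy3) pools of arrays 1 to 3, joined within an array, squares with bars are mean and SD (n = 3), and diamonds are *WT* pool 1 (Cy5) and *WT* pool 2 (Cy3) of the *WT* vs *WT* array. The *Rps15* lines rise and the *Rpl3* and *Rpsa* lines fall without overlap, and array 3 has the flattest fall for *Rpl3*, *Rpsa*, *Rpl4* and *Rpl5*.

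Paralogs and *Rps19bp1* stood near 0, with a median log2 *Mut*/*WT* of 0.05, a range from -0.04 to 0.10, and 0 of 7 past the adjusted *P* in either direction (limma), where 16.4% and 13.2% of all probes were. For *Rpl3l* and *Rpl39l*, not above background, the ratio depends on how the background is treated, and *Rpl39l* was at 0.52 with an offset of 0 and *Rpl3l* at 0.50 with the deposited ratios. At an unadjusted *P* under 0.05 and 1.5-fold none passed either. *Rpl22*, whose protein represses its paralog, and that paralog, *Rpl22l1*, had means of -0.03 and 0.10 (adjusted *P* = 0.743 and 0.181). *Rpl7* was at -0.26 (adjusted *P* = 0.00684) and *Rpl7l1* at 0.08 (adjusted *P* = 0.257), whereas *Rps27* and *Rps27l*, the latter a p53 target, were both at 0.05. *Rpl36a* and *Rpl36al* had means of 0.07 and -0.04. No difference within a pair was tested.

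The values of arrays 1 and 2 were more alike than those of array 3. Over the 84 genes, Pearson's *r* of the log2 *Mut*/*WT* was 0.961 between arrays 1 and 2, 0.852 between arrays 1 and 3 and 0.874 between arrays 2 and 3, as a description across genes that share the same pools and spots. The SD over the genes was 0.243, 0.227 and 0.150 on arrays 1, 2 and 3 and 0.1285 on the *WT* vs *WT* array. More than 1.5-fold lay 5 genes on array 1, 5 on array 2, 1 on array 3 and 0 between the *WT* pools. These 5 were *Rpl3*, *Rpsa*, *Rpl4*, *Rpl5* and *Rps15*, and the gene of array 3 was *Rps15*. In all 8 genes with a mean below -0.3 (*Rpl3*, *Rpsa*, *Rpl4*, *Rpl5*, *Rpl8*, *Rpl13a*, *Rps6* and *Rps9*) the fall was smallest on array 3.

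The *WT* vs *WT* array shows what the same dyes read without a difference in genotype, although it shares *WT* pools 1 and 2 with arrays 1 and 2. Its ratios also hold any difference between these pools, which a single array without exchanged dyes cannot separate from the dyes. Over the 24 genes lower past the adjusted *P*, the median log2 *Mut*/*WT* was -0.25, and the *WT* vs *WT* ratios of these genes had a median of -0.16 and ranged from -0.35 to 0.03. For *Rpl3*, *Rpl4*, *Rpl5* and *Rpsa* that ratio was -0.28, -0.10, -0.14 and -0.03, smaller in size than on any of arrays 1 to 3. For *Rps18* (-0.30), *Rpl21* (-0.35) and *Rpl12* (-0.28) it was larger in size than their means of -0.24, -0.22 and -0.18. Of all 84 genes, none exceeded 0.35 in size on this array.

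When a dye term for each probe was estimated from the *WT* vs *WT* array, 0 of 84 genes were lower past the adjusted *P* (limma, 4 at an unadjusted *P* under 0.05) and 1 was higher, where 0.571% and 0.534% of all probes passed. The gene that remained was *Rps15*, estimated at 0.74 on the log2 scale (SE 0.119, adjusted *P* = 0.0130). The estimates for *Rpsa*, *Rpl4*, *Rpl3* and *Rpl5* were -0.57, -0.48, -0.47 and -0.37, with adjusted *P* from 0.116 to 0.273. Without this term they were -0.60, -0.57, -0.75 and -0.51. With it, the estimates of *Rpl13a*, *Rps6* and *Rps9* were -0.04, -0.04 and -0.08. The median over the 84 genes was -0.02 with this term, which rests on a single array and raised the SE from 0.0529 to 0.106 (median over genes).

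Within a single dye, the 3 *Mut* pools in Cy3 were set against *WT* pool 2 in Cy3 of the fourth array, without a test. The median difference over the 84 genes was 0.01, with 38 genes lower and 46 higher. *Rpl4* (-0.62), *Rpsa* (-0.50), *Rpl5* (-0.38) and *Rpl3* (-0.38) were again lower and *Rps15* (0.34) higher, while *Rps6* was at 0.01. Values set across arrays have their own spread. *WT* pool 1, hybridized in Cy5 on array 1 and on the fourth array, differed between them with an SD of 0.220 over the genes and by more than 1.5-fold in 2, *Rpl30* (0.76) and *Rpl41* (-0.62).

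Several genes were held by more than 1 probe, 31 in all with 68 probes. The range between the means of a gene's probes had a median of 0.107, larger in size than the median ratio of -0.07 over the 84 genes. It was up to 0.1 in 13 genes and from 0.1 to 0.3 in 15. The range exceeded 0.3 in 3 genes, *Rpsa*, *Rps2* and *Rplp0*, chosen after their values were seen. In each of them both probes carry the same RefSeq accession. The 2 probes of *Rplp0* were equally bright, at mean signals of 15.14 each, yet the second gave -0.70, -0.61 and -0.40, a mean of -0.57 (adjusted *P* = 6.36e-05), against -0.14 at the first. *Rps2*, a small-subunit protein near the mRNA entry channel, was at -0.01 (adjusted *P* = 0.940) at its brighter probe and at -0.64, -0.63 and -0.22, a mean of -0.50 (adjusted *P* = 0.000562), at the other.

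The call for *Rpsa* came from its brighter probe. The dimmer probe of *Rpsa*, with a mean signal of 7.85, gave -0.06, -0.04 and -0.05 (adjusted *P* = 0.510). The *WT* vs *WT* ratios of the 2 probes differed by 0.0933 in *Rpsa*, 0.177 in *Rps2* and 0.170 in *Rplp0*. No gene had probes past the adjusted *P* in opposite directions (0 of 31). Of the genes that passed as lower at the brightest probe, *Rpl34*, *Rpl7a* and *Rps15a* also had a probe above 0. These probes were at 0.02, 0.11 and 0.05 and did not pass.

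**Figure D4:**
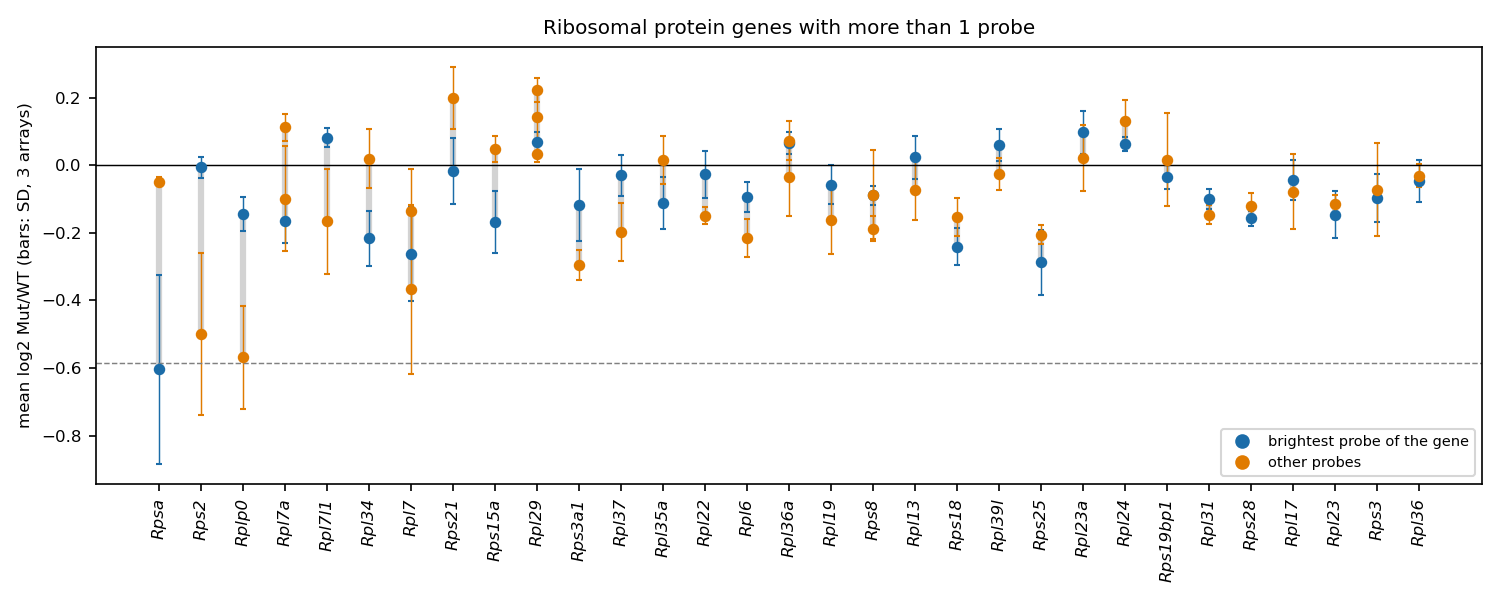
Mean log2 *Mut*/*WT* over arrays 1 to 3 (y axis, bars are SD) for each probe of the 31 ribosomal protein genes with more than 1 probe (x axis, ordered by the range between probes). Blue points are the brightest probe of the gene and orange points the others. Probes lie farthest apart in *Rpsa*, *Rps2* and *Rplp0* and within 0.3 of each other in the other genes.

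Genes that work with the cytosolic ribosome were read in the same fit, in which 1.46% of all probes were called lower and 0.551% higher, and 16.4% and 13.2% passed the adjusted *P*. Mitochondrial ribosomal proteins, which build the separate ribosome of that organelle, had 0 of 76 genes called (limma, also 0 at an unadjusted *P* under 0.05 and 1.5-fold), with 14 lower (18.4%) and 13 higher (17.1%) past the adjusted *P* and a median of -0.03. Ribosome biogenesis genes had 0 of 44 called (also 0 unadjusted), 11 lower (25%), 8 higher (18.2%) and a median of -0.06. Of 42 translation factor genes 3 were called, all lower, with 16 lower (38.1%) and 3 higher (7.14%) past the adjusted *P* and a median of -0.06. These were *Eef2*, which moves the ribosome along the mRNA, at -1.61, -1.44 and -0.87 (mean -1.31, adjusted *P* = 9.22e-06), *Eif4g1*, the scaffold of the cap-binding complex, at a mean of -0.74, and *Eef1a1*, which delivers aminoacyl-tRNA, at -0.65. Between the *WT* pools they read -0.43, -0.10 and -0.15, and with the dye term 0 of the 3 were called, at estimates of -0.88, -0.64 and -0.51. With the dye term 0 genes of the mitochondrial, biogenesis and translation factor lists passed the adjusted *P* in either direction.

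Among 6 ribosome partners and fusion genes that the name rule misses, *Rack1*, a scaffold on the small subunit, was lower at -0.56, -0.66 and -0.41 (mean -0.54, adjusted *P* = 5.75e-05), with -0.32 between the *WT* pools. *Fau*, which encodes a small-subunit protein as a fusion with a ubiquitin-like domain, was higher at 0.50, 0.32 and 0.20 (mean 0.34, adjusted *P* = 0.00170). Both were named after their values were seen, and with the dye term neither passed the adjusted *P* (0 of 6 genes). The other 4 did not pass in either fit. Of 7 genes that regulate TOP mRNAs or sense free ribosomal proteins, 3 were lower and 2 higher past the adjusted *P*, and none was called (0, also 0 at an unadjusted *P* under 0.05 and 1.5-fold). With the dye term 0 of the 7 passed the adjusted *P*.

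Markers of the cell types that a sort could hold were read as well. The summed linear signal of the 11 nephron progenitor markers ranged from 26620 to 28550 in the *Mut* channels and from 29600 to 31320 in the *WT* channels, with 5 lower (45.5%) and 2 higher (18.2%) past the adjusted *P*, beside 16.4% and 13.2% of all probes. It was 30070 in *WT* pool 1 (Cy5) and 27830 in *WT* pool 2 (Cy3) of the fourth array, the latter within the *Mut* range. The largest part of that sum is *Crym*. Its log2 signal was 13.75, 13.60 and 13.70 in *Mut* and 14.03, 13.92 and 13.94 in *WT*. The ratio of *Crym* averaged -0.28, beside -0.26 on the *WT* vs *WT* array and -0.02 with the dye term. The 2 higher markers were *Eya1* (0.31) and *Itga8* (0.27). The summed signal of the 8 stroma markers ranged from 18210 to 22280 in *Mut* and from 15230 to 17740 in *WT*, with 7 higher (87.5%) and 1 lower (12.5%), and it was 15620 and 17710 in *WT* pools 1 and 2 of the fourth array. The summed signal of 7 erythroid markers was 3525 to 3708 in *Mut* and 1732 to 1905 in *WT*, but 4080 and 3598 in *WT* pools 1 and 2 of the fourth array. Most of that sum is the globin gene *Hba-a1*, whose log2 signal was 11.63, 11.59 and 11.54 in *Mut* and 10.34, 10.44 and 10.48 in *WT*, a mean log2 *Mut*/*WT* of 1.17, while the other 6 lay between -0.02 and 0.49. Past the adjusted *P*, 4 of the 7 erythroid markers were higher (57.1%) and 0 lower. With the dye term 0 progenitor and 0 stroma markers passed the adjusted *P* in either direction (limma). In that fit 1 erythroid marker, *Hba-a1*, was higher (1.39, limma, adjusted *P* = 0.000167), whereas it was at 0.03 against *WT* pool 2 in Cy3.

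Sums for ureteric bud (9 markers), endothelium (6) and macrophage markers (4) differed less, at 2601 to 2687, 578 to 595 and 404 to 410 in *Mut* and 2733 to 2809, 595 to 618 and 420 to 438 in *WT*. In *WT* pools 1 and 2 of the fourth array they were 2445 and 2582, 577 and 584, and 389 and 380. Of these, 1 ureteric bud, 3 endothelium and 1 macrophage marker, and 3 erythroid markers, were not well above background on any of arrays 1 to 3. The part of these cell types in the ribosomal protein ratios was not tested. In pools of sorted cells, fewer cells of a type and less RNA per cell cannot be told apart.

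How the arrays are normalized decides the level against which the ribosomal protein genes are read, since most of their probes are bright. With median centring in place of loess, the median log2 *Mut*/*WT* of the 84 genes was -0.97, -0.12 and -1.35 on arrays 1, 2 and 3 and -0.74 on the *WT* vs *WT* array. The other probes in the brightest 1% moved with them, to -0.92, -0.02, -1.23 and -0.69. The median of the ribosomal protein genes minus that of the other bright probes was thus -0.05, -0.09, -0.12 and -0.05, and with loess it was -0.03, -0.08, -0.09 and -0.05. Relative to other bright probes the ribosomal protein genes were lower on each array, the *WT* vs *WT* array included. When the ribosomal protein probes were given no weight in the loess curve the median was -0.09, and *Rpl3*, *Rpsa* and *Rps15* were at -0.77, -0.61 and 0.72.

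**Figure D5:**
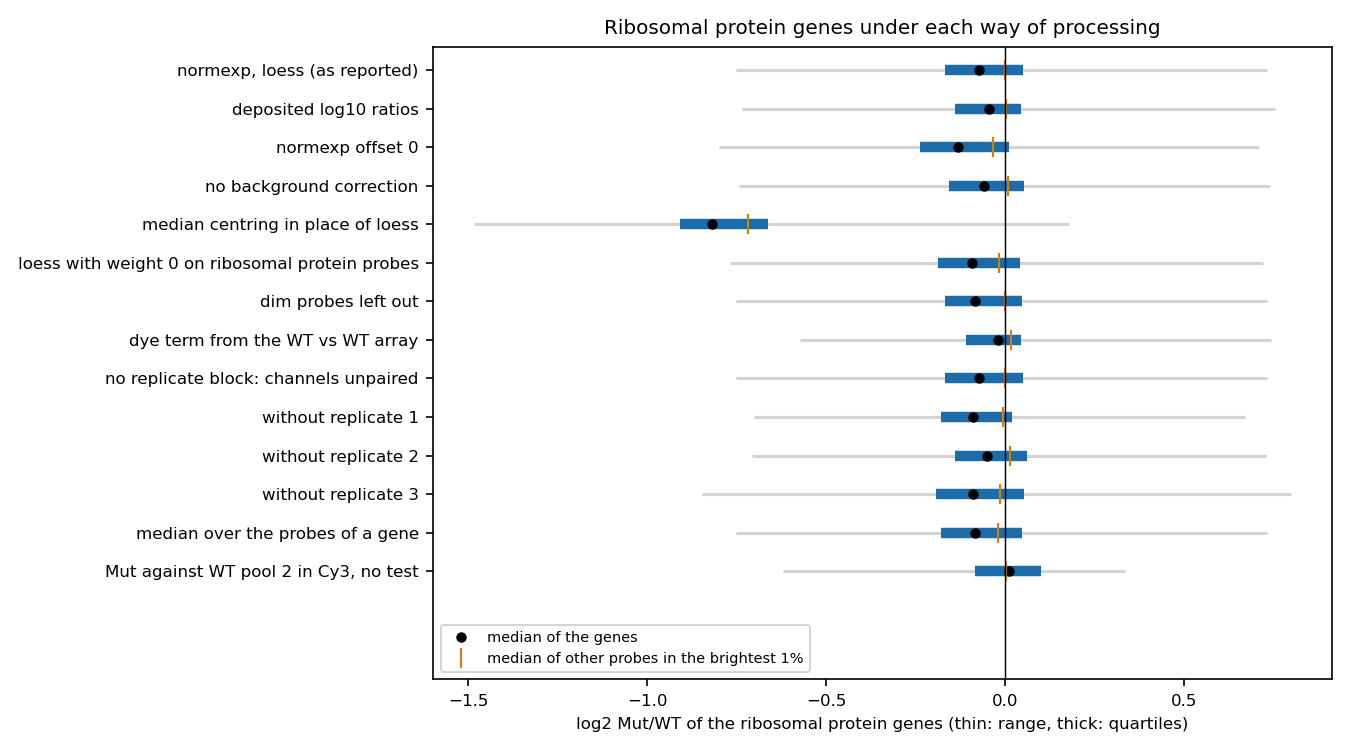
Log2 *Mut*/*WT* of the ribosomal protein genes (x axis) under each way of processing (y axis). Thin lines are the range, thick lines the quartiles, black points the median, and orange ticks the median of the other probes in the brightest 1%. Apart from median centring, which shifts both medians together, the medians lie between -0.13 and 0.01.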

How the data were processed

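*Six2*-positive cells were measured on 4 dual-colour Agilent arrays on 1 slide, so that no slide block could be fitted. The authors deposited spot and background intensity values from Agilent Feature Extraction 10.7.3.1, without normalization, and the log10 ratio of red over green after that program's background subtraction and dye normalization. In a value table that the authors deposited for the whole series, 180072 of 180072 entries equalled these log10 ratios within 1e-06. Values from GeneSpring, which the methods name, were not analysed here. Control type, probe and accession columns, for which the deposited files hold other entries than measurements, served for identity.

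Median signals (the planned mean signal was not used here) were corrected with normexp (offset 50), normalized by loess within arrays, control spots and outlier spots were left out, and spots of a probe were averaged. Single channels were normalized by Aquantile. Ratios were tested against 0 on arrays 1 to 3 in R 4.3.3 with limma 3.58.1, the *P* values of 41166 probes being adjusted after Benjamini and Hochberg, at an adjusted *P* under 0.05 and 1.5-fold. The script was tested on simulated data. Symbols came from a RefSeq table of GRCm38.p6 through the accessions of the array (22951 of 41174 probes), used for names only, and probe sequences and positions were not used. A gene is given by its brightest probe. Results of 2 genes are not reported singly or drawn here, and counts and medians include them. Named were members with a called probe, the 6 largest rises and 6 largest falls, the stalk, *Rpsa*, *Rpl5*, *Rpl11*, *Rps6*, *Rps27a*, paralog pairs, and called genes of the other lists. Members and lists were chosen with earlier results of these data known. Same-numbered pools shared an array, and the deviations of both channels from their group means correlated over probes at 0.388, 0.431 and 0.320 (Pearson), so arrays were kept as pairs. Median signals of 65.5 to 82 in Cy3 and 84 to 92 in Cy5 stood over backgrounds of 16 to 17 and 50. Precision is limited by how many arrays there are.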

Additional observations from a re-analysis of the deposited data

How the results depend on the processing

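The direction of *Rpl3* and *Rpsa* (lower) and of *Rps15* (higher) was kept under every alternative tried, *Rps15* at 0.03 with median centring. No ribosomal protein probe was called with normexp offset 0, with median centring or with the methods' *t*-test after Benjamini-Hochberg adjustment, where genes past the adjusted *P* were also 0 in both directions, and 0 of all probes were called under the first and second. The median over the genes was -0.13 with offset 0, -0.82 with median centring, -0.0197 with the dye term and 0.0104 against *WT* pool 2 in Cy3. With the deposited log10 ratios 1 probe was called (0 lower), and 5 genes were lower and 1 higher past the adjusted *P*. Of all probes, 2705 were called and 4700 passed the adjusted *P* under this setting. The dye term left 1 called probe (0 lower), with 0 genes lower and 1 higher, beside 323 called and 455 passing among all probes. Translation factor genes called were 0 under the deposited ratios, median centring and the dye term. With no weight on ribosomal protein probes in the loess curve, 2 genes were higher. Without the pairing (no replicate block), 15 genes were lower and 2 higher, and 8332 of all probes passed in either direction. With the methods' *t*-test at an unadjusted *P*, 2 probes were called (1 lower), and 11 genes were higher and 19 lower. No fold minimum gave 42 probes, 36 lower and 6 higher.

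Leaving out 1 array at a time gave 2 to 7 called probes (1 to 6 lower, and 1 higher throughout), 10 to 23 genes lower and 1 to 4 higher, 0 to 1 mitochondrial, 0 to 2 biogenesis and 2 to 7 translation factor genes called. Among all probes, 606 to 1207 were called and 8011 to 11711 passed the adjusted *P* in these fits. The 7 probes came without array 3, when *Rpl4* (-0.76) and *Rpl5* (-0.63) passed 1.5-fold, and *Rpsa* lost its call without array 1 or array 2. The median over probes put *Rpsa* at -0.33.

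Median centring turned the sign of 23 of the 84 genes (3 of the 4 past the adjusted *P* as higher), the dye term of 23 (3 of the 24 past it as lower, *Rps18*, *Rpl21* and *Rpl12*), and the comparison within Cy3 of 42 (7 of the 24 and 1 of the 4). Other alternatives turned between 0 and 7. With median centring the other probes in the brightest 1% had a median of -0.72, and 312 of 319 were below 0. Among the genes that the naming rule picks, median centring turned *Rpl10* (-0.57), *Rpl22l1* (-0.63), *Rpl30* (-0.53), *Rpl36a* (-0.69), *Rpl39* (-0.58), *Rpl7l1* (-0.51), *Rps19* (-0.48), *Rps26* (-0.64), *Rps27* (-0.72) and *Rps27l* (-0.65). The dye term turned, among these, *Rpl36a* (-0.15), *Rpl36al* (0.0265), *Rpl7l1* (-0.14) and *Rps27* (-0.15). Against *WT* pool 2 in Cy3 those turned were *Rpl11* (0.0567), *Rpl22* (0.0697), *Rpl30* (-0.28), *Rpl36a* (-0.0176), *Rpl36al* (0.0883), *Rpl39* (-0.10), *Rpl39l* (-0.00051), *Rplp0* (0.0306), *Rps27a* (0.0250) and *Rps6* (0.0130). The remaining cases among them were *Rps27* (-0.0216, offset 0), *Rpl39l* (-0.0161, no background correction), *Rpl7l1* (-0.0421, median over probes) and *Rpl22*, which ranged from -0.0642 to 0.0051 when 1 array was left out. The cause of these changes was not tested. The comparison within Cy3 had no test, and the median over probes no count of probes. Signal over background limits *Rpl3l* and *Rpl39l*.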
